A study of Mus musculus with 23 samples.

Results

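The elements described here are the ERV1 retrovirus-like repeats of the mouse that remain once the better known internal parts MuLV-int, MMERGLN-int, RLTR6-int, MERV1_I-int and the MURVY names are set aside. They were taken by name from the family field of the deposited table, which held 144 ERV1 rows among 1135 repeat subfamilies. The 6 rows set aside left 138 elements. Of these, 40 had names for mouse or rodent elements (starting with RLTR or RMER, or ending in MM), 80 had MER or LTR names and are called ancient, and 18 had neither kind of name, among them MLTR14, MMVL30-int, RodERV21-int, 2 MuRRS internal parts and most LTRIS names. By part, 24 were internal parts and 114 were LTRs. The classes follow the letters of the names only, so that LTR72_RN, with a rat tag, counted as ancient.

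Reads assigned to these elements came from polyA-selected, stranded RNA of whole spinal cord lysate. Heterozygous PS19 mice, a model of tauopathy with a transgene for human tau, were compared with wild-type littermates. At 9 months the groups held 7 PS19 and 6 control animals. At 4 months both groups held 5. The tau transgene of PS19 mice is driven by the mouse prion promoter, and it is the only allele the labels give as different between the genotypes. The labels gave no sex, litter or batch, and replicates are numbered in the order of the samples. P-values thus measure the spread between animals within groups, whatever its source. For the tests between ages and of the interaction, that spread was pooled over all 4 groups. The animals of the 4-month groups differed more from each other.

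ERV1 elements are class I endogenous retroviruses, related to the gammaretroviruses to which murine leukemia virus belongs. A full copy has an internal part, with the genes for capsid, polymerase and often envelope proteins, between a pair of long terminal repeats (LTRs), which carry the promoter and the polyadenylation signal. Recombination between the LTRs often removes the internal part and leaves a solitary LTR, and so most copies in a genome are LTRs. Elements with MER and LTR names mostly entered mammalian genomes long ago and are too damaged to move, whereas several with RLTR, VL30 or MuRRS names belong to the rodent lineage. A subfamily stands for many copies spread over the genome, often inside introns and untranslated regions of genes. A read assigned to a subfamily can therefore come from a promoter of the element or from a longer transcript that runs through a copy, and these were not told apart. In bulk tissue, more cells of a type and more RNA per cell cannot be told apart either.

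Values are normalized reads per subfamily, which are not divided by length or copy number, so that levels are compared between groups and not between elements. The 9-month samples held 338090 to 590194 repeat reads each, and the 4-month samples 529522 to 2168280. At 4 months, replicates 1 to 3 of both genotypes had 1494940 to 2459740 normalized repeat reads in all. Replicates 4 and 5 of both genotypes had 471178 to 779835, against 370990 to 539759 at 9 months. Among the 138 elements, 89 had a mean of at least 10 normalized reads over all 23 samples and were tested, together with all other repeats (920 in all). The ancient class lost most to this filter, with 39 of 80 elements tested, against 35 of 40 mouse and rodent and 15 of 18 with neither kind of name. Of the 89, 61 had a mean of at least 10 in each of the 4 groups. Another 20 were under 10 in both 9-month groups, and MER50B, MER50 and LTR9 were under 10 in both 4-month groups, so that these 23 passed the filter through 1 age and had to differ between the ages.

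The first comparison asked which of these elements differ between PS19 and control spinal cord at 9 months. In this comparison 5 elements were higher in PS19 and 0 lower: the mouse and rodent LTRs RLTR24, RLTR23, RLTR30D2_MM and RLTR30D_RN, and MER57-int, the internal part of an ancient element. The differences ranged from 0.61 to 1.87 on the log2 scale. Among all 920 repeats tested, 3.04% were higher and 0.326% lower by the same limma test (Benjamini-Hochberg adjusted p under 0.05), so that 5 higher of 89 stood near that background. The median log2 fold change was 0.18 over the 89 elements and 0.19 over all 920 repeats. With samples scaled within the repeats, both medians were 0.03.

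RLTR24, an LTR of rodent ERV1 elements, had 343 normalized reads in the lowest, 432 in the median and 506 in the highest PS19 animal. In control animals the same values were 142, 277 and 382. Every PS19 animal lay above the control median, and the ranges overlapped through control replicate 3 at 382 and PS19 replicates 4 and 7 at 363 and 343. The log2 fold change was 0.79 (SE 0.18, limma adjusted p = 0.0190), with means of 425 ± 58.1 (SD, n = 7) and 259 ± 95.1 (SD, n = 6).

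RLTR23, another rodent LTR, had 100.2, 149.9 and 197.7 normalized reads in the lowest, median and highest PS19 animal, and 82.3, 101.1 and 105.4 in control. The controls lay close together, and 6 of 7 PS19 animals were above their median; PS19 replicate 2, at 100.2, lay among them. The log2 fold change was 0.61 (SE 0.16, limma adjusted p = 0.0334).

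Elements with RLTR30D names made up 2 of the 5 calls. RLTR30D2_MM had 35.5, 64.9 and 83.9 normalized reads in the lowest, median and highest PS19 animal, and 18.1, 27.7 and 52.5 in control. All 7 PS19 animals lay above the control median, and 5 of 7 lay above the highest control. The log2 fold change was 1.06 (SE 0.25, limma adjusted p = 0.0190). RLTR30D_RN, whose tag is that of the rat, had 13.7, 20.5 and 42.4 in PS19 and 1.05, 4.83 and 19.6 in control, from 11 to 50 reads per PS19 animal and 1 to 21 per control. Control replicates 1 and 5, at 19.6 and 17.6, lay within the PS19 range, and the other 4 controls lay below it. The log2 fold change was 1.87 (SE 0.48, limma adjusted p = 0.0314). RLTR30D_MM had 25.2, 42.1 and 57.2 in PS19 and 19.1, 22.6 and 32.2 in control, which did not pass (log2 fold change 0.72, limma adjusted p = 0.101). RLTR30, RLTR30B_MM and RLTR30E_MM had log2 fold changes of 0.08, 0.02 and -0.00045. The RLTR30 names share sequence, so that reads could be divided between them and their values are not independent.

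MER57-int had 10.3, 21.1 and 37.3 normalized reads in the lowest, median and highest PS19 animal, and 0.948, 7.40 and 15.7 in control. All 7 PS19 animals lay above the control median, and the ranges overlapped between 10.3 and 15.7. The log2 fold change was 1.53 (SE 0.42, limma adjusted p = 0.0442), on 9 to 44 reads per PS19 animal and 1 to 15 per control. The 3 tested LTRs with MER57 names did not pass, with log2 fold changes of 0.64 for MER57C2, 0.47 for MER57E1 and -0.04 for MER57D.

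**Figure D1:**
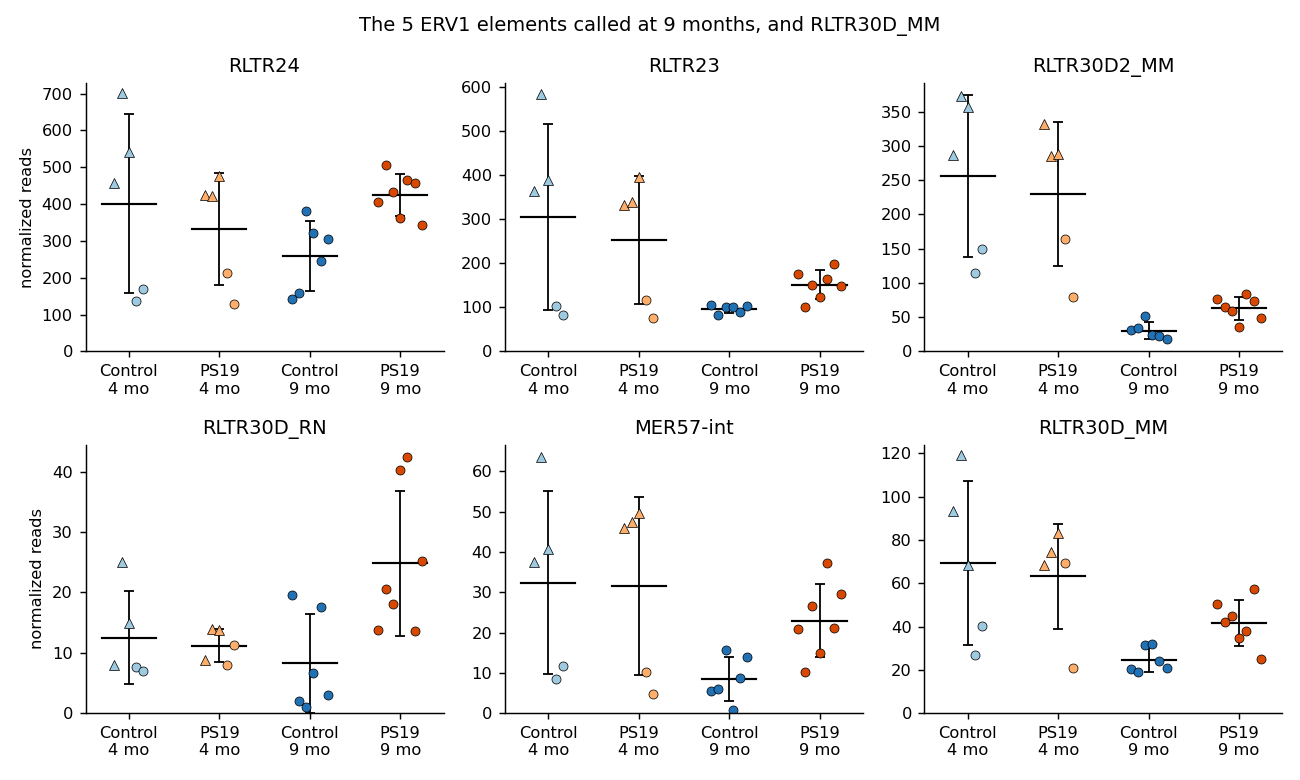
Normalized reads per animal (vertical axes, linear) for the 5 elements called at 9 months and for RLTR30D_MM, which did not pass, in the 4 groups (horizontal axis); points are animals, triangles mark 4-month replicates 1 to 3, and bars give the mean ± SD. At 9 months every panel shows higher PS19 means with overlapping ranges, as for RLTR24 at 343 to 506 in PS19 against 142 to 382 in control, and at 4 months the genotypes overlap widely.

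These calls depended on the setting and on single animals. DESeq2 on the recovered reads called 6 elements and edgeR 3. By limma 0 were called with no filter on low values, with all 23 samples in 1 fit, and when replicates 6 and 7 were the only PS19 animals kept (21, 4 and 12 at an unadjusted p under 0.05). Without a filter all 138 elements were tested. For these settings and with an animal left out, the share of all repeats is not given here. The counts are thus not set against it. The sample numbers of PS19 replicates 1 to 5 all came before those of the controls. Apart from fits that left out a single animal, the log2 fold change ranged from 0.57 to 0.79 for RLTR24 and from 0.84 to 1.07 for RLTR30D2_MM. When samples were scaled within the repeats, RLTR30D2_MM was the 1 element of the 89 that passed (limma adjusted p = 0.0318). Of all 920 repeats so scaled, 10 were higher and 7 lower. The other 4 had log2 fold changes of 0.63 for RLTR24, 1.72 for RLTR30D_RN, 0.45 for RLTR23 and 1.39 for MER57-int, with adjusted p from 0.0620 to 0.0918. Leaving out PS19 replicate 5 gave 0 member calls, and leaving out another animal gave from 1 to 7. None of the 89 elements had ranges that did not overlap between the genotypes at 9 months, against 0.978% of all 920 repeats higher and 0.326% lower.

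By class, 4 of 35 mouse and rodent elements, 1 of 39 ancient elements and 0 of 15 with neither kind of name were called higher in PS19. Among all 920 repeats 3.04% were called higher. The 4 include RLTR30D2_MM and RLTR30D_RN, which may share reads. With samples scaled within the repeats, 1 mouse and rodent element and 0 ancient elements passed, against 10 higher and 7 lower of all 920 repeats. The medians lay close together, at 0.16 for mouse and rodent, 0.17 for ancient and 0.30 for the others. By part, 1 of 14 internal parts and 4 of 75 LTRs were called, and the median was 0.18 in both. A positive log2 fold change was found in 74.2% of the 89 elements and in 75% of all 920 repeats. The difference between classes was not tested.

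**Figure D2:**
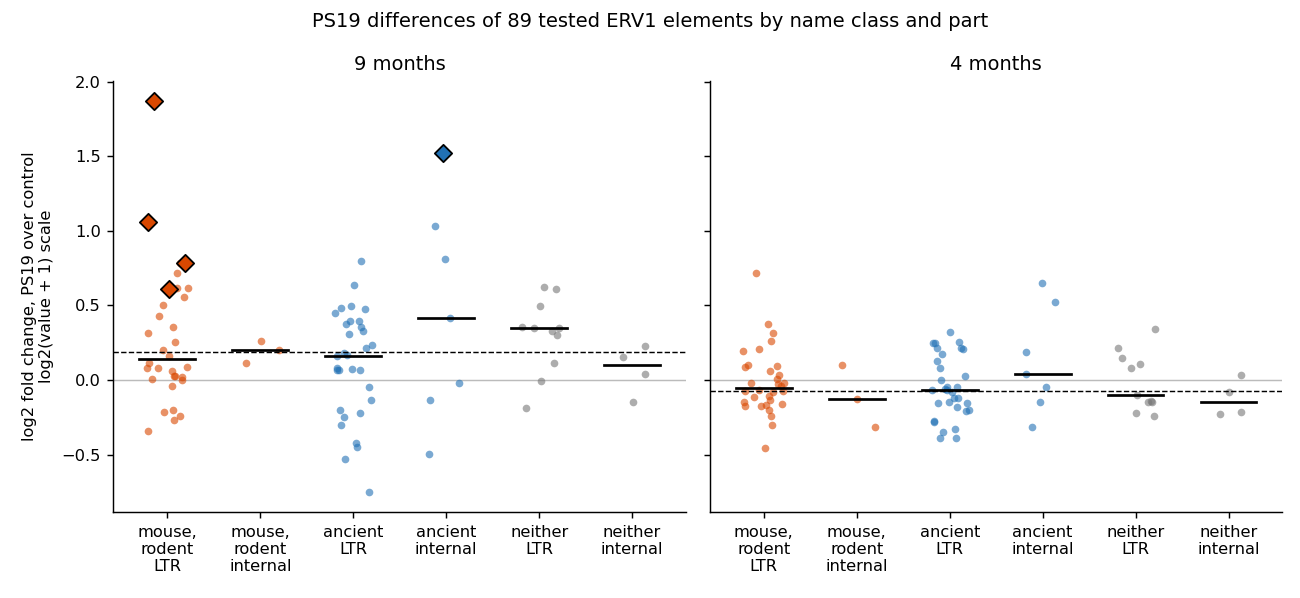
Log2 fold change of PS19 over control (vertical axis) at 9 months (left) and at 4 months (right) for each tested element by class and part (horizontal axis); diamonds passed the adjusted threshold, black bars are medians and the dashed line is the median of all 920 repeats at that age. At 9 months the classes overlap, with medians of 0.16 for mouse and rodent and 0.17 for ancient elements, and 4 of the 5 diamonds are mouse and rodent LTRs. No element passed at 4 months.

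Groups of related names were picked out after their values were seen and were not tested. All 7 tested LTRIS names, LTRs found on MuRRS elements, which are sequences related to murine retroviruses, had positive values, from 0.30 for LTRIS2 to 0.62 for LTRIS6, with a median of 0.36, where 75% of all repeats were positive. Of 6 tested RLTR1 names 5 were positive and RLTR1D was at -0.04. MER90, MER92 and RLTR41 names went both ways. RLTR1B was at 44.5 ± 10.8 (SD, n = 7) against 27.1 ± 12.2 normalized reads (SD, n = 6), a log2 fold change of 0.78 that did not pass (limma adjusted p = 0.123). The LTRs MMERGLN_LTR and MERV1_LTR, partners of internal parts set aside here, had log2 fold changes of 0.61 and 0.33 (limma adjusted p = 0.316 and 0.409). Of the 6 rows set aside, 3 were called higher, with a median of 0.76. The most read elements did not pass. RLTR4_MM-int, a murine leukemia virus-type internal part, was at 6680 ± 1009 in PS19 (SD, n = 7) and, in control animals, 6205 ± 1050 (SD, n = 6), a log2 fold change of 0.11 (limma adjusted p = 0.586). MMVL30-int, the internal part of VL30 elements, which are defective retrovirus-like elements of the mouse, was at 943 ± 265 and 836 ± 373 (0.23, adjusted p = 0.529).

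Lower values in PS19 did not pass the adjusted threshold in any of the 89 elements. The ancient LTR78B had 78.3, 99.1 and 144 normalized reads in the lowest, median and highest PS19 animal and 115.2, 131.7 and 157.6 in control (log2 fold change -0.43, limma adjusted p = 0.151). LTR48 was at 64.3 ± 16.8 (SD, n = 7) and 85.8 ± 9.30 (SD, n = 6), a log2 fold change of -0.45 (limma adjusted p = 0.207). RLTR41C had -0.34 (adjusted p = 0.192) and RMER21A -0.27 (adjusted p = 0.216). These were 4 of 14 elements with an unadjusted limma p under 0.05, and the other 10 were higher in PS19. These 14 were 15.7% of the 89, against 17.8% of all 920 repeats.

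At 4 months, 0 of the 89 elements passed the limma test between PS19 and control (0% of 920 repeats were called in either direction). The number with an unadjusted p under 0.05 was 0 with limma, 0 with edgeR and 0 with DESeq2. The smallest limma p-values belonged to RLTR41A2 (log2 fold change 0.72), MER34B-int (0.52) and RLTR1D2_MM (0.31) among positive values, and to RLTR41 (-0.46), LTR78 (-0.39) and RLTR1B-int (-0.31) among negative ones. The 5 elements called at 9 months had log2 fold changes from -0.17 to -0.02 at 4 months. The 4-month animals fell into the sets of different repeat signal given above, which held both genotypes. RLTR24, for example, had 425, 422 and 477 normalized reads in PS19 replicates 1 to 3 and 212 and 128 in replicates 4 and 5, and 456, 701, 542, 138 and 169 in control replicates 1 to 5. With a term for the sets, 0 of the 89 were called and 1 had an unadjusted p under 0.05.

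The difference of the PS19 effect between the ages was tested as an interaction over all 23 samples. None of the 89 elements passed, and 2 had an unadjusted p under 0.05 (0% of 920 repeats were called). RLTR30D_RN had a difference of 1.90 (SE 0.80, limma adjusted p = 0.997) and RLTR30D2_MM of 1.23 (SE 0.57, limma adjusted p = 0.997). The calls at 9 months are thus not shown to be particular to that age.

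Between the ages, most elements had fewer normalized reads at 9 months. In control animals 70 of 89 were lower and 6 higher, where 79.3% and 6.09% of all 920 repeats were lower and higher by the same limma test. In PS19 animals 64 were lower and 5 higher, against 77% and 6.09% of all repeats. The median log2 fold change was -2.03 in control and -1.58 in PS19, against -2.14 and -1.83 for all repeats. These counts moved with the scaling. With samples scaled within the repeats, control animals had 28 higher and 13 lower elements and PS19 animals 27 and 14, and the medians became 0.05 and 0.16. Among all 920 repeats so scaled, the control fit called 301 higher and 273 lower, with a median of -0.09. The PS19 fit called 297 and 257 of them, with a median of -0.05. With 4-month replicates 4 and 5 only, the counts were 12 higher and 34 lower in control, and 12 higher and 35 lower in PS19. The share of all repeats in that subset is not given here, so these counts are not set against it. The ranges of the ages did not overlap, with 9 months lower, in 34 of 89 elements in control and 37 in PS19, against 48.4% and 43.3% of all repeats. Among the 61 elements with a mean of at least 10 in every group, 3 were higher and 46 lower in control. All 920 repeats, without that limit, were 6.09% higher and 79.3% lower. The ages also coincide with any difference in preparation, sequencing or read assignment between the 9-month and the 4-month samples, and these cannot be told apart from age.

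Against that direction, 5 elements were higher at 9 months in both genotypes, with every 9-month animal above every 4-month animal. Such a gap was found in 3.7% of all 920 repeats in control and in 4.89% in PS19. Of the 5, MER50B, MER50 and LTR9 had passed the filter only through the 9-month animals. They therefore had to be higher at 9 months, and their age p-values are no independent evidence. MER50B, an ancient LTR, had 2902 ± 397 normalized reads at 9 months (SD, n = 13), from 2355 to 3943, against 2.28 ± 3.11 in the younger animals (SD, n = 10), from 0 to 9.08. No read was assigned to MER50B in 5 of the 10 animals at 4 months, and the highest had 8 reads, whereas the lowest 9-month animal had 2245. The log2 fold change was 10.09 in control (SE 0.51, limma adjusted p = 7.07e-16) and 10.60 in PS19 (SE 0.50, limma adjusted p = 6.53e-17). It was the 1 element with a mean of at least 50 at 9 months and a level more than 8 times that at 4 months. By genotype MER50B did not differ past the threshold at 9 months, at 3061 ± 436 in PS19 (SD, n = 7) and, in control animals, 2715 ± 271 (SD, n = 6; log2 fold change 0.17, limma adjusted p = 0.352).

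The related LTR MER50 had 44.99 ± 9.82 normalized reads at 9 months (SD, n = 13), against 1.04 ± 1.32 in the younger animals (SD, n = 10), with log2 fold changes of 4.90 (control) and 4.48 (PS19). LTR9 had 24.0 ± 8.92 and 0.850 ± 1.01 (3.95 and 3.77). Both had at most 4 reads in any 4-month animal. MER50-int, the internal part that shares the MER50 name, did not go with them: it had 1.01 ± 2.31 normalized reads at 9 months, with no read in 10 of 13 animals, and 4.43 ± 4.55 at 4 months, and was too low to be tested.

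RLTR41C, a rodent LTR, had 299 ± 62.0 normalized reads at 9 months (SD, n = 13), from 214 to 420, against 39.5 ± 25.9 in the younger animals (SD, n = 10), from 12.5 to 98.7. Its log2 fold change was 3.27 in control (SE 0.41, limma adjusted p = 3.94e-07) and 2.997 in PS19 (SE 0.40, limma adjusted p = 1.69e-06). The other tested RLTR41 names, RLTR41A2, RLTR41B and RLTR41, had log2 fold changes of -2.79, -2.50 and -0.94 in control. MER110A, an ancient LTR, had 117 ± 14.7 at 9 months and 36.1 ± 25.2 at 4 months, with log2 fold changes of 2.07 and 2.18. LTR78B passed in control (1.52, limma adjusted p = 0.0165) and not in PS19 (1.17, limma adjusted p = 0.0533), and the difference between these did not pass. The 5 elements and LTR78B kept their direction when samples were scaled within the repeats, and their log2 fold changes were larger there, as for RLTR41C at 5.31 in control.

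**Figure D3:**
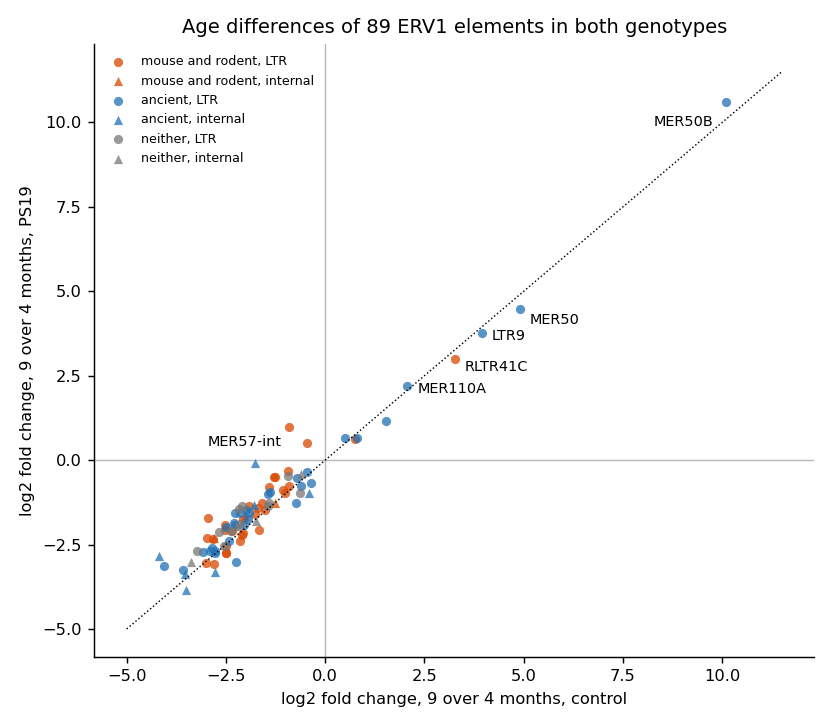
Log2 fold change of 9 over 4 months in control (horizontal axis) and in PS19 (vertical axis) for each tested element, with circles for LTRs, triangles for internal parts and a dotted line where both are equal. MER50B stands alone at 10.09 and 10.60, MER50, LTR9, RLTR41C and MER110A follow, and most elements lie below 0 on both axes.

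Among the elements that were lower at 9 months, RMER2 and RodERV21-int were of the 4 with the smallest p in both genotypes. RMER2, a rodent LTR, had 116 ± 32.4 normalized reads at 9 months (SD, n = 13), against 724 ± 287 in the younger animals (SD, n = 10), with log2 fold changes of -2.83 (control) and -2.33 (PS19). RodERV21-int, the internal part of a rodent element, had 48.7 ± 17.0 and 550 ± 345 (-3.39 and -3.01). In both, every 9-month animal lay below every 4-month animal. LTRIS2 had log2 fold changes of -2.68 (control) and -2.13 (PS19). With samples scaled within the repeats, RMER2 stayed lower at -0.75 in control and -0.53 in PS19, and RodERV21-int at -1.32 and -1.22. RLTR48A, at -2.16 in PS19, had -0.37 there and did not pass (limma adjusted p = 0.145).

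By part, the ancient class allowed no comparison of the change with age over all its tested elements. Of its 7 tested internal parts, 4 (LTR37-int, MER31-int, MER52-int and MER92-int) had means under 10 in both 9-month groups, passed the filter through the 4-month animals and so had to be lower at 9 months in normalized reads. The same held for 10 of its 32 tested LTRs. The other 3 internal parts had log2 fold changes in control of -1.79 for MER51-int, -1.76 for MER57-int and -0.42 for MER34B-int, and in PS19 of -1.32, -0.08 and -0.96. MER51-int passed in both genotypes, MER57-int in control and MER34B-int in neither, and scaled within the repeats all 3 turned positive in both genotypes. The other 22 ancient LTRs ranged from -2.50 to 10.09 in control, with 5 higher and 10 lower. Of the 5, MER50B, MER50 and LTR9 had passed the filter through the 9-month animals. In the mouse and rodent class all 3 internal parts were lower in control, from -2.81 to -1.27. Scaled within the repeats, RLTR1B-int stayed lower at -0.74, whereas RLTR14-int was at 0.05 and RLTR4_MM-int at 0.81. Of the 27 mouse and rodent LTRs with a mean of at least 10 in a 9-month group, 1 was higher and 23 lower in control. Of all 920 repeats, 6.09% were higher and 79.3% lower in control. Scaled within the repeats, the 32 tested mouse and rodent LTRs had 9 higher and 4 lower in control, against 301 and 273 of all 920. The difference between parts was not tested.

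How far an element followed the sets of 4-month animals varied. The mean of replicates 1 to 3 was above that of replicates 4 and 5 in 85 of the 87 tested elements with reads in both sets, and in 911 of 917 repeats in all. The median log2 ratio was 1.53 for mouse and rodent elements, 2.24 for ancient elements, 1.34 for the others and 1.90 for all repeats. The 4 highest ratios were those of MER31-int (5.23), LTRIS6 (3.23), LTR73 (3.13) and MER57E1 (3.12). All 4 had means under 10 in both 9-month groups and at most 10 reads in any animal of replicates 4 and 5. They passed the filter through replicates 1 to 3 and so had to be higher there. Among ancient elements, 4 tested internal parts and 10 tested LTRs were under 10 in both 9-month groups. The part of this in the ancient median was not tested. The lowest, picked out after the values were seen, were RLTR6C_Mm (-0.38), RLTR4_MM-int (-0.12), MMVL30-int (0.04), MER51-int (0.05), RLTR4_Mm (0.11) and RLTR6_Mm (0.27).

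MMVL30-int had from 1017 to 1437 normalized reads in the 10 animals at 4 months, with 1127, 1333, 1172, 1149 and 1173 in control replicates 1 to 5 and 1017, 1264, 1437, 1338 and 1091 in PS19. The sets thus overlapped in both genotypes. RLTR4_MM-int had 10494, 18188, 13752, 18443 and 14691 in control replicates 1 to 5, and 14670, 12400, 21262, 14973 and 17466 in PS19, again with no separation of the sets. RMER5, a rodent LTR with many reads, had 1980 ± 1002 in PS19 and 2282 ± 1514 in control at 4 months (SD, n = 5 each), with a log2 ratio between the sets of 1.83. For RLTR4_MM-int the difference between the ages was -1.27 in control (SE 0.27, limma adjusted p = 0.000106) and did not pass when samples were scaled within the repeats (0.81, adjusted p = 0.102), where its sign was the opposite.

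**Figure D4:**
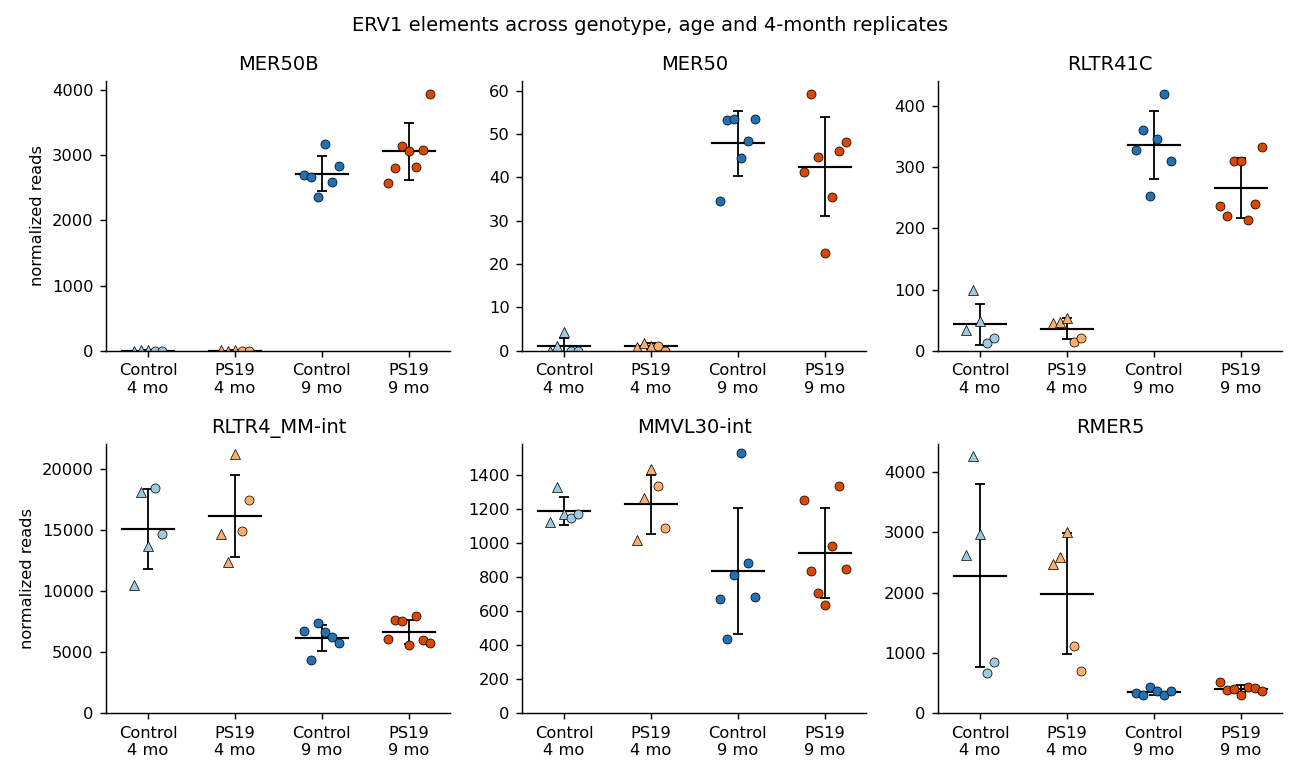
Normalized reads per animal (vertical axes) of MER50B, MER50, RLTR41C, RLTR4_MM-int, MMVL30-int and RMER5 in the 4 groups (horizontal axis); points are animals, triangles mark 4-month replicates 1 to 3, and bars give the mean ± SD. MER50B and RLTR41C are higher at 9 months, at 2902 and 299 on average against 2.28 and 39.5, and RLTR4_MM-int and MMVL30-int show 4-month triangles and circles at similar heights.

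Summed over the class, mouse and rodent elements had 10496 ± 992 normalized reads in PS19 and 9615 ± 1217 in control at 9 months (SD, n = 7 and 6), and 25366 ± 5258 and 25510 ± 5868 at 4 months (SD, n = 5 each). As percent of repeat reads this was 2.36 ± 0.27, 2.38 ± 0.26, 2.49 ± 1.28 and 2.38 ± 1.44. The genotypes overlapped at both ages. RLTR4_MM-int made up 63.4% of this sum in PS19 and 64.2% in control at 9 months, and 64.4% and 60.5% at 4 months. Without RLTR4_MM-int, the class was at 0.856% ± 0.062 and 0.847% ± 0.061 of repeat reads at 9 months and 0.778% ± 0.089 and 0.780% ± 0.120 at 4 months.

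The ancient elements had 4289 ± 418 normalized reads in PS19 and 3932 ± 281 in control at 9 months, and 2737 ± 1441 and 3228 ± 2203 at 4 months. MER50B made up 71.1% and 68.9% of this sum at 9 months, and 0.0446% and 0.0538% at 4 months. Without it, the ancient class was at 1228 ± 45.9 in PS19 and 1217 ± 26.1 in control at 9 months, and at 2735 ± 1439 and 3225 ± 2200 at 4 months. In normalized reads the direction between the ages turned with MER50B: the log2 difference of the summed class was 0.28 in control and 0.65 in PS19 with it, and -1.41 and -1.15 without it. As percent of repeat reads, the ancient class without MER50B was at 0.276 ± 0.022 in PS19 and 0.303 ± 0.019 in control at 9 months, and 0.215 ± 0.019 and 0.211 ± 0.035 at 4 months, so higher at 9 months in both genotypes.

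**Figure D5:**
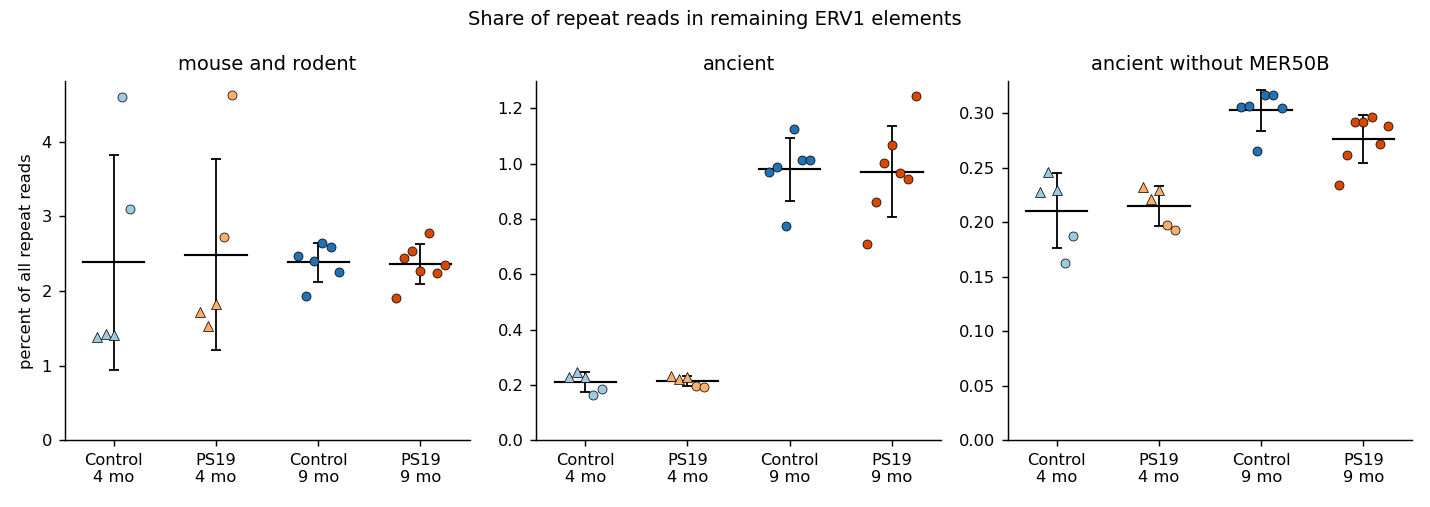
Percent of all repeat reads per animal (vertical axes) in the mouse and rodent class, the ancient class and the ancient class without MER50B, in the 4 groups (horizontal axis); points are animals, triangles mark 4-month replicates 1 to 3, and bars give the mean ± SD. MER50B made up 71.1% (PS19) and 68.9% (control) of the ancient sum at 9 months. Without it the ancient share falls at 9 months, is nearly the same at 4 months, and on average stays higher at 9 months in both genotypes.

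The number of elements with reads also differed between classes and ages. Of 40 mouse and rodent elements, 35 had a read in every animal in each 9-month group, 39 in PS19 and 40 in control at 4 months. Of 80 ancient elements, 35 in PS19 and 33 in control had a read in every animal at 9 months, against 54 and 43 at 4 months. Among the ancient elements, 15 in PS19 and 19 in control had no read in any 9-month animal, against 1 and 2 at 4 months. The number of repeat reads per sample differed between the ages too, and its part in these counts was not tested.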

How the data were processed

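PolyA-selected RNA of 23 whole spinal cord samples was measured. The authors deposited a signal for each repeat subfamily, namely reads scaled by a factor per sample, with family and class in the row names. The submitters' processing notes name build mm10 and the tools STAR, Trimmomatic and DESeq2 with no version. How reads were assigned to repeats, and by which program and annotation, was not given in the sources used here. Near-identical subfamilies may share reads.

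In each column 100 percent of values were whole multiples of a smallest step (to within 0.1 percent of that step), which gave the reads. Samples of 1 group were never closer than a chi-square per degree of freedom of 3.73, more than sampling noise.

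Values were tested as log2(value + 1) with limma 3.58.1 in R 4.3.3 (variance trend) over the 920 subfamilies with a mean of at least 10 (215 removed), with Benjamini-Hochberg adjustment over all 920 and a threshold of 0.05. Genotypes were compared within each age alone, and ages and the interaction over all samples. Fold changes on this scale understate changes of low elements. The fits were run on simulated data with the spread of the 9-month samples and without the sets of 4-month samples. That run does not test the 4-month, age and interaction fits at the larger spread of the 4-month samples. Elements were named if called at 9 months, if among the smallest p-values of another comparison (3 each way at 4 months, 4 each way between ages, 2 for the interaction), if among the 4 most read of a class, if more than 8 times higher at 9 months, by partner name, or if among the 4 highest ratios of the 4-month sets. Others named were chosen after their values were seen. The members, lists and sets of 4-month samples were chosen with earlier results of these data known. Alternatives were pseudocounts of 0.5 and 5, no filter or one at 50, TMM and quantile scaling within repeats, DESeq2 1.42.0 and edgeR 4.0.16 on these reads, all samples in 1 fit, subsets and each animal left out. Sequences of the elements were not used here.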

Additional observations from a re-analysis of the deposited data

Results flagged for a closer look

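MER50B in PS19 replicate 7 at 9 months was at 3943 normalized reads, far from the other 6 PS19 animals at 2574 to 3136. It was the 1 such value among 116 groups looked at, where about 1 in 20 is expected by chance.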

How the results depend on the processing

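No paired analysis was possible because the labels give no replicate numbers. At 9 months, 5 elements were called. The count was 5 with pseudocounts of 0.5 and of 5, 6 with DESeq2, which kept all 5, 3 with edgeR, 3 with a filter at 50, 1 with TMM and 1 with quantile scaling, 0 without a filter, 0 with all 23 samples in 1 fit and 0 with PS19 replicates 6 and 7 only (21, 4 and 12 at an unadjusted p under 0.05 in these 3). With a filter at 50, RLTR30D_RN and MER57-int, with means of 14.9 and 23.1 over all samples, were not tested. Without a filter all 138 elements were tested. With TMM, 10 of all 920 repeats were higher and 7 lower, and the share of all repeats is not given here for the other alternatives. PS19 replicates 1 to 5 carry lower sample numbers than every control. Leaving out an animal gave 0 to 7: 0 without PS19 replicate 5; 1 without PS19 replicate 6, control 2 or control 4; 2 without control 1, 5 or 6; 3 without PS19 1 or 3; 4, 5 and 6 without PS19 2, 7 and 4; and 7 without control 3. Over these 13 fits the call was lost in 4 for RLTR24, 5 for RLTR30D2_MM, 5 for RLTR30D_RN, 9 for RLTR23 and 9 for MER57-int, always with the same direction. The counts at 4 months and for the interaction were 0 under every alternative run.

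Between ages, 76 elements were called in control and 69 in PS19. In control the count was 44 with a filter at 50, 41 with TMM, 48 with quantile scaling, 46 with 4-month replicates 4 and 5 only, and 72 to 80 without an animal. In PS19 it was 104 without a filter, 39 with a filter at 50, 41 with TMM, and 67 to 75 without an animal. The filter also set how many elements were tested: all 138 without one, 89 at a mean of 10 and fewer at 50. The counts with another filter are thus not comparable with 76 and 69. Among all 920 repeats under TMM, the control fit called 301 higher and 273 lower, whereas the PS19 fit called 297 and 257. For the other alternatives between ages, the share of all repeats is not given here. As percent of repeat reads, the mouse and rodent sum differed by -0.00095 between ages in control and -0.075 in PS19 (log2), in place of -1.41 and -1.27. As percent the ancient sum differed by 2.22 and 2.18, in place of 0.28 and 0.65. In normalized reads it differed by -1.41 and -1.15 without MER50B, an alternative chosen after seeing the data, whereas the mean percent without MER50B was higher at 9 months (0.303 against 0.211 in control, 0.276 against 0.215 in PS19). Between genotypes at 9 months, the ancient sum went from 0.13 to -0.013 as percent.

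With TMM scaling the direction turned for 18 of 89 elements at 9 months and 14 at 4 months, none of them called. Between ages it turned for 36 in control and 37 in PS19. Of these, 26 and 23 were called without TMM scaling, and 10 and 4 were called under both scalings. In control RLTR4_Mm, at -0.92 between ages, was at 1.17 with TMM (limma adjusted p = 0.00193 and 0.0134). At 9 months RLTR4_MM-int, at 0.11, was at -0.052 with TMM and -0.050 with PS19 replicates 6 and 7 only. RLTR4_Mm, at 0.06, was at -0.10 with TMM and -0.051 with quantile scaling. MER67C, at 0.07, was at -0.088 with TMM, -0.14 with quantile scaling and -0.10 to 0.17 without an animal. At 4 months MER34B-int was at -0.049 to 0.86 without an animal. Elements with fewer than 10 reads in several animals, such as RLTR30D_RN and MER57-int, are limited by counting error.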

Other observations

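LTR28, an ancient LTR that was too low over all samples to be tested, was picked out after its values were seen. It had 20.8 ± 14.9 normalized reads in PS19 at 9 months (SD, n = 7), from 3.29 to 48.7, and 2.18 ± 3.06 in control (SD, n = 6), from 0 to 8.06. In the limma fit without a filter its log2 fold change was 2.92 (SE 0.62, adjusted p = 0.0605). At 4 months no read was assigned to LTR28 in 9 of 10 animals, and the other had 2 reads.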
